A study of Mus musculus with 6 samples.

Results

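The genes described here are those of the mouse major histocompatibility complex (MHC) and of antigen processing, measured in thyroid of mice that lack Foxe1 and of controls. They were chosen by name: every gene whose symbol begins with H2-, plus 16 named genes of the same pathways, each read from its brightest probe set. Of these, 35 H2- genes and 14 of the 16 others were measured, which makes 49 members among 19505 named genes, and each has 1 probe set. Cd74 (the invariant chain) and Nlrc5 (the class I coactivator) could not be matched to a named probe set and are not analysed here. By class there were 25 class I H2- genes, 9 class II H2- genes, 11 genes of the class I pathway, the class II regulator Ciita, the class I-like genes Cd1d1 and Mr1, and H2-Ke6, a steroid dehydrogenase gene that only shares the name and the region.

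The study compared 3 Foxe1flox/flox/Cre mice, called knockouts, with 3 Cre controls, all on a C57BL/6J background and all carrying Cre. Every animal, control or knockout, was given tamoxifen (0.05 g/kg, 5 daily injections) at an age of 6 to 8 weeks, and its thyroid was collected when 2 weeks had passed. For each animal RNA of 1 lobe went onto 1 array, so there are 3 biological replicates per group. Neither the promoter driving Cre nor the sex of the animals is given in the sources used.

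MHC class I molecules are displayed on nearly all nucleated cells. Each consists of a heavy chain and beta-2 microglobulin, and carries a peptide that the proteasome cut in the cytosol and that the TAP transporter brought into the endoplasmic reticulum. Class II molecules are made mainly by dendritic cells, macrophages and B cells, load peptides from endosomes with the help of H2-DM, and depend on the coactivator encoded by Ciita. Interferon gamma raises both classes, and thyroid follicular cells are known to display class II in autoimmune thyroid disease.

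The promoters of the 2 classes carry textbook elements, some of them shared. The stretches below are shown because they hold elements that tie each class to its regulators. They are from RefSeq (GRCm38.p6), where 39 members have an entry, and were read upstream of 1 start per gene. The class II stretches are given first, and capitals mark ATTGG, the reverse of CCAAT (the Y box), and AACNGATG, a core of the X box.

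H2-Aa: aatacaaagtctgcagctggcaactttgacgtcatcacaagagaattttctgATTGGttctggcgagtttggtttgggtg

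H2-Eb1: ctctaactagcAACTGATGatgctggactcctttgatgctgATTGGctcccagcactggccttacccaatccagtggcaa

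H2-DMb1: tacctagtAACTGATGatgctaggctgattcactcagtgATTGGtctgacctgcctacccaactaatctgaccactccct

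H2-Ob: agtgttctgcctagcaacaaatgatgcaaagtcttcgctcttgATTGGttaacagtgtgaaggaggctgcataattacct

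These 80-base stretches run from 100 to 21 bases before the start. They lie at chr17:34287844-34287923 (minus strand, H2-Aa) and, on the plus strand, at chr17:34305767-34305846 (H2-Eb1), chr17:34153091-34153170 (H2-DMb1) and chr17:34238805-34238884 (H2-Ob). ATTGG on this strand begins within 100 bases of the start in 7 of the 8 class II promoters listed, at 43 to 100 bases, against 10.7% of 27025 promoters. The box is not particular to class II: CCAAT on either strand within 250 bases is held by 17 of 20 class I promoters listed. Class II has it in 7 of 8, and 34.5% of all promoters hold it. AACNGATG on either strand is held by 4 of the 8 within 250 bases, against 1.97% of all promoters. For class I, capitals mark GGGGATTCCCC, a site of the kappaB type, and TTTCACTTC, part of the interferon element. In B2m they mark GAAA followed after 2 bases by GAAA, a repeat of the interferon type, and ATTGG.

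H2-K1: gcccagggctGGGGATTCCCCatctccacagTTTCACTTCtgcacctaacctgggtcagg

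H2-D1: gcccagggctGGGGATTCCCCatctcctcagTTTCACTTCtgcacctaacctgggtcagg

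B2m: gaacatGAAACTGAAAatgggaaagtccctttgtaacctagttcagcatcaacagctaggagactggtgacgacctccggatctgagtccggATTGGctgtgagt

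These lie at chr17:34000409-34000468 (minus strand, H2-K1), chr17:35262913-35262972 (plus strand, H2-D1) and chr2:122147542-122147646 (plus strand, B2m). The H2-K1 and H2-D1 stretches differ at 1 of 60 bases, and class I genes are so alike in general that a probe set of one may also read another. Searched on both strands within 250 bases, GGGGATTCCCC is held by 2 of 20 class I promoters listed against 0.0222% of all. TTTCACTTC is held by 5 of 20 against 0.429%, and the GAAA repeat by 2 of 20 against 3.04%. Of 9 class I pathway promoters listed, B2m is the only 1 with the GAAA repeat. GGGGATTCCCC and TTTCACTTC are held by 0 of those 9, and CCAAT by 4. No 2 of these motifs overlap in the stretches shown. The motifs were picked with these promoters in view, and a match describes letters, not a bound site. The letters GGGGATTCCCC were copied from the H2-K1 promoter, so its match was fixed in advance. The other match is the near-identical H2-D1 stretch, so the share over all promoters is no test.

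Foxe1 itself was near the bottom of the scale in the knockouts. It read 7.60, 7.19 and 7.04 in controls and 3.33, 2.88 and 3.04 in knockouts on the log2 scale, a fall of 4.19 (SE 0.22, limma adjusted p = 0.000442). Array medians lay between 5.62 and 5.69 and lower quartiles between 3.49 and 3.60. Thyroglobulin (Tg), the defining follicular product, read at least 18.67 on all 6 arrays. Thyroid was therefore present in every sample, but this does not show how much of the sample it made up. Other follicular genes were not level: of 7 measured, 6 had positive differences and Foxe1 alone a negative one. Hhex differed by 2.46 (limma adjusted p = 0.0273). Slc5a5 read 8.00, 8.00 and 2.97 in controls and 11.50, 10.34 and 11.61 in knockouts (difference 4.83, adjusted p = 0.14). Markers of other tissues were bright in both groups as well, and they were not level: means over 4 airway genes were 16.12 to 16.77 in controls and 15.19 to 15.35 in knockouts, and over 5 skeletal muscle genes 17.27 to 17.42 and 16.41 to 17.06. All 9 of these genes had negative differences and none was called. Means over 5 squamous epithelium genes were 15.77 to 15.98 in controls and 15.92 to 16.61 in knockouts. Y-linked genes averaged 3.04 in control 1 and 2.65 in knockout 3 and between 8.03 and 8.30 on the other 4 arrays, so each group holds 1 array without that signal. The groups are small, and the number of arrays limits the precision of every value.

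No MHC or antigen processing gene was called different between knockout and control. None of the 49 members passed an adjusted p of 0.05 in limma, where 0.338% of all 22206 probe sets did (75, and 2 to 43 when any 1 array was left out). None reached an unadjusted p of 0.05 either, against 12.7% of all probe sets, and the smallest adjusted p was 0.49. An ordinary t statistic gave 0 members at an unadjusted p of 0.05. At an adjusted p of 0.05 it called 0 of all 22206 probe sets, so it cannot speak to the members there. All 3 knockouts lay on one side of all 3 controls for 2 of the 49 members (4.08%), against 18.1% of all probe sets. Differences ran from -0.57 to 0.39 log2 units, with 18 positive and 31 negative and a median of -0.05, against a median of -0.02 over all probe sets. The median size of a difference, sign ignored, was 0.14 log2 units in the members and 0.21 in all probe sets, while the median SD within a group was 0.28 in both.

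These intervals bound how large a change the arrays could have missed. The 95% interval of the difference, from limma, lay wholly between -1 and 1 log2 unit (within 2-fold) for 41 of the 49 members, and between -0.5 and 0.5 for 7. The 8 others were H2-Q10, H2-Q4, H2-M9, Psmb9, H2-Aa, H2-Ab1, H2-Eb1 and H2-DMb1. Of the 41, 11 were among the 12 members under the 25th percentile of probe sets. Faint signals are compressed, so a narrow interval there says little about a missed change. The median width of an interval to one side was 0.51 log2 units, about the difference a typical member needed for an unadjusted p of 0.05. A call at an adjusted p of 0.05 needed a larger one. The regulator Irf1, described below, was not called at a difference of -1.07 (SE 0.26, limma adjusted p = 0.136).

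**Figure D1:**
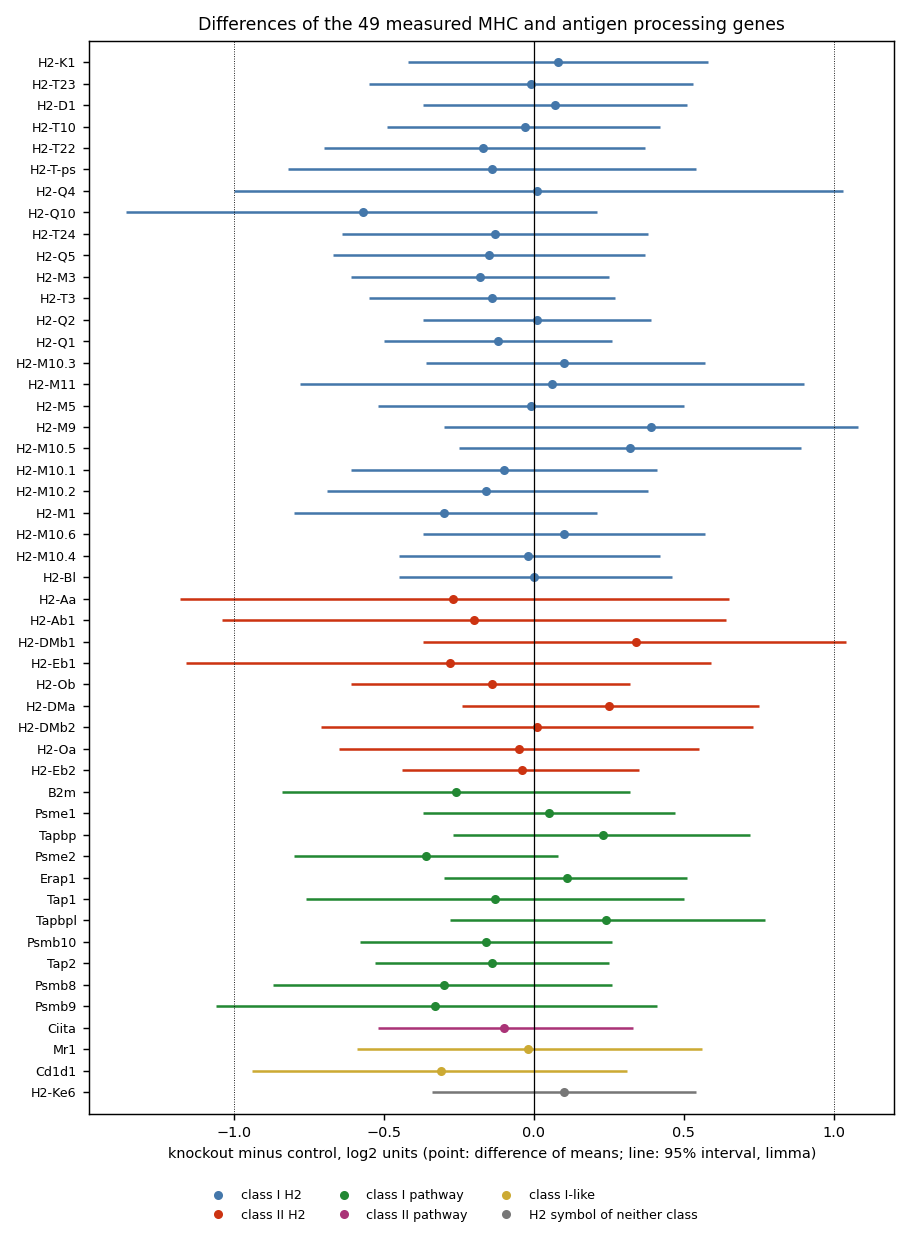
Difference between the knockout mean and the control mean (log2 units, n = 3 arrays per group) for each of the 49 measured members, coloured by class. Points are differences, lines are 95% intervals from limma, and dotted lines mark 1 log2 unit either way. Every interval spans 0, and the longest belong to H2-Q4, H2-Aa, H2-Eb1, H2-M11 and H2-Ab1.

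The classical class I heavy chains had differences well inside the spread of the animals. H2-K1, which presents cytosolic peptides to CD8 T cells, read 12.61, 12.06 and 12.73 in controls and 12.66, 12.51 and 12.47 in knockouts. The knockouts lay inside the control range, and the difference was 0.08 (SE 0.22, 95% interval -0.42 to 0.58, limma adjusted p = 0.924). H2-D1, its partner locus, read 9.45, 9.15 and 9.60 in controls and 9.45, 9.37 and 9.59 in knockouts. Its difference was 0.07 (SE 0.19, 95% interval -0.37 to 0.51), again with full overlap. The sign of the H2-K1 difference was negative with quantile normalization run again, and those of H2-K1 and H2-D1 were negative without control 2 (-0.12 and -0.055).

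The nonclassical class I genes that read above the array median showed the same overlap. H2-T23, which encodes Qa-1 and shows signal peptides to natural killer cell receptors, read 9.59, 9.53 and 9.98 in controls and 10.09, 9.42 and 9.56 in knockouts (difference -0.01, SE 0.24), so the knockouts held both the highest and the lowest array. H2-T22 and H2-T10, ligands of some gamma delta T cells, differed by -0.17 and -0.03, and H2-T24 and H2-T-ps by -0.13 and -0.14. With each array centred on its median H2-T23 and H2-T10 were at 0.035 and 0.012 instead. H2-Q4 differed by 0.01 but spanned 2.03 log2 units over the 6 arrays, from 5.81 in knockout 3 to 7.84 in knockout 1, the widest span of any member. Its difference was 0.54 without knockout 3 and -0.48 without knockout 1.

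H2-Q10, a soluble class I molecule made mainly by liver, had the largest difference of any member. It read 7.62, 6.21 and 7.22 in controls and 6.17, 6.69 and 6.47 in knockouts, a difference of -0.57 (SE 0.34, 95% interval -1.36 to 0.21, limma adjusted p = 0.542). Control 2 lay among the knockouts while the other two controls lay above them. The difference was -0.98 without control 2, with an adjusted p of 0.18 or more for every member in that fit, and -0.27 without control 1.

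Both members whose groups did not overlap were faint class I genes with small differences. H2-T3, the thymus leukaemia antigen of thymus and gut epithelium, read 4.96, 4.64 and 4.64 in controls and 4.60, 4.62 and 4.61 in knockouts, which differed by -0.14 (SE 0.18, limma adjusted p = 0.817). H2-Q1 read 4.02, 4.10 and 4.06 in controls and 4.01, 3.88 and 3.94 in knockouts and differed by -0.12 (SE 0.17, adjusted p = 0.832). Every knockout lay below every control in 8.78% of all probe sets. The highest knockout stood only just below the lowest control for both genes.

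The remaining class I genes were faint in both groups. H2-Q2, H2-Q5 (a transcribed pseudogene) and H2-M3, which presents formylated bacterial peptides, differed by 0.01, -0.15 and -0.18. The 9 genes of the H2-M1, H2-M9, H2-M10 and H2-M11 group, known from sensory neurons of the vomeronasal organ, lay with H2-M5 and H2-Bl below the 25th percentile of probe sets, between 2.24 and 4.14 on any array. Their differences ran from -0.30 for H2-M1 to 0.39 for H2-M9. Their mean levels lay between percentiles 0.9 (H2-Bl) and 24.6 (H2-M10.3) of probe sets, where a change may be compressed.

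Class II genes were likewise not separated by group, but they varied more between animals. H2-Aa, the alpha chain of the I-A molecule, read 10.58, 10.82 and 11.64 in controls and 11.29, 11.07 and 9.88 in knockouts. Control 3 was the highest array and knockout 3 the lowest, and among the other 4 both knockouts lay above both controls. The difference was -0.27 (SE 0.40, 95% interval -1.18 to 0.65, limma adjusted p = 0.843). H2-Ab1, the beta chain of the same molecule, read 10.51, 10.54 and 11.43 in controls and 11.04, 10.98 and 9.86 in knockouts, with the same arrays at both ends, the same order between them and a difference of -0.20 (SE 0.37).

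H2-Eb1 repeated that order. It encodes the E beta chain, whose alpha partner is defective in C57BL/6 mice, and read 8.05, 8.05 and 9.12 in controls and 8.61, 8.36 and 7.40 in knockouts (difference -0.28, SE 0.38, 95% interval -1.16 to 0.59). All 3 chain genes turned positive without knockout 3, to 0.17, 0.18 and 0.078 for H2-Aa, H2-Ab1 and H2-Eb1, and without control 3, to 0.047, 0.10 and 0.073. The direction of the class II chain genes therefore rests on those arrays.

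H2-DM, which exchanges peptides on class II, read slightly higher on average in the knockouts. H2-DMb1 read 8.39, 8.97 and 9.65 in controls and 9.58, 9.34 and 9.10 in knockouts, a difference of 0.34 (SE 0.31, 95% interval -0.37 to 1.04, limma adjusted p = 0.721). The knockouts lay inside the control range, and the difference was 0.66 without control 3 and 0.03 without control 1. H2-DMa read 4.16, 4.82 and 4.67 in controls and 4.70, 4.92 and 4.79 in knockouts, a difference of 0.25 (SE 0.22) that was 0.06 without control 1.

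The other class II genes were fainter. H2-Oa and H2-Ob encode H2-O, an inhibitor of H2-DM. H2-Oa read 3.54, 3.57 and 3.87 in controls and 3.72, 4.04 and 3.07 in knockouts, and H2-Ob read 5.00, 5.12 and 4.77 against 4.91, 4.54 and 5.01. Their differences were -0.05 and -0.14, those of H2-DMb2 and H2-Eb2 were 0.01 and -0.04, and every one of these genes overlapped between groups. Ciita, the switch of class II transcription, read 5.01, 5.27 and 5.44 in controls and 5.14, 5.07 and 5.22 in knockouts (difference -0.10, SE 0.19). The controls kept the order they had for H2-Aa, with control 3 highest of all arrays, whereas knockout 3 was the highest knockout for Ciita and the lowest for H2-Aa.

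**Figure D2:**
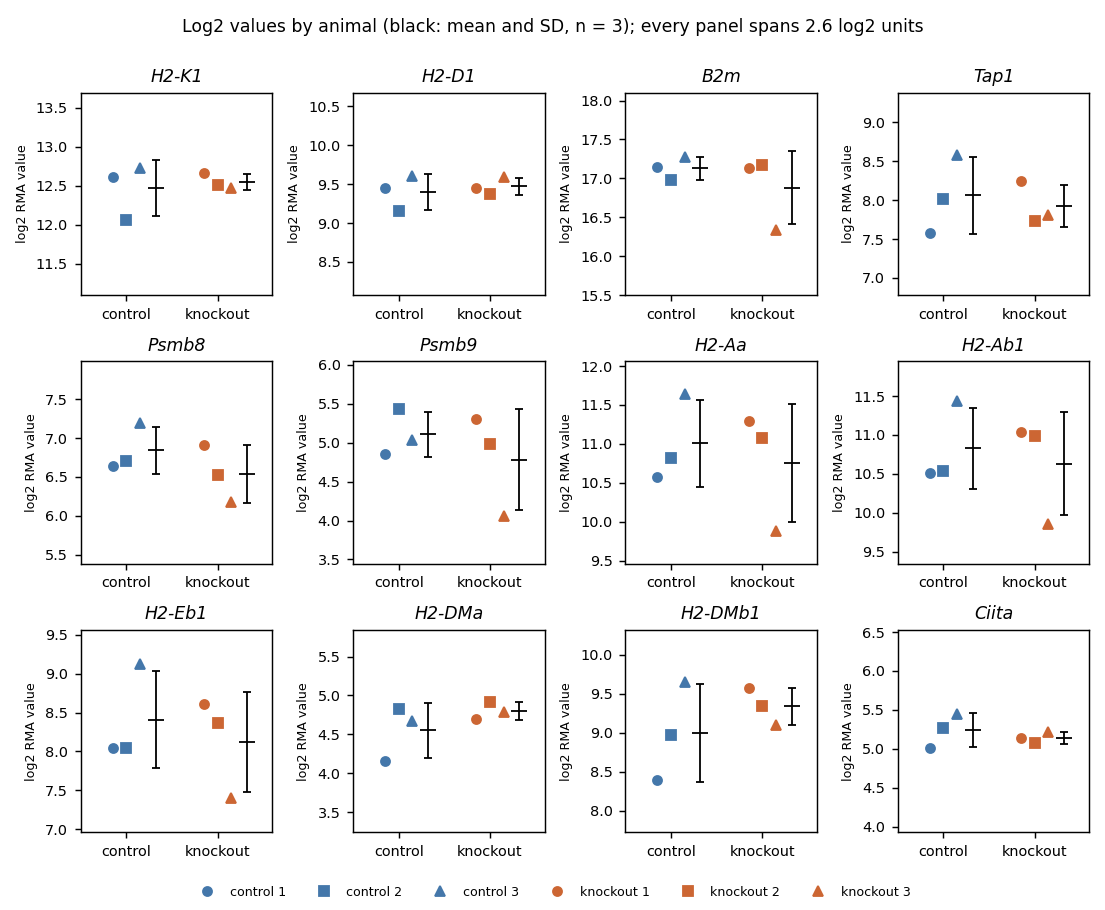
Log2 RMA value of 12 members in each of the 6 animals, with the group mean and SD in black (n = 3). Each panel spans 2.6 log2 units. Control 3 is highest and knockout 3 lowest for H2-Aa, H2-Ab1 and H2-Eb1, while H2-K1 and H2-D1 lie close together in all animals.

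Set side by side, the 2 classes did not part by genotype. Class I H2- genes had a median difference of -0.02 (10 positive, 15 negative of 25) and class II of -0.05 (3 positive, 6 negative of 9), so class II minus class I was -0.033. This gap was 0.18 without knockout 3, and -0.20 among genes brighter than the median probe set (9 of class I, 4 of class II). What set the classes apart was spread. The median SD within a group was 0.48 in class II and 0.27 in class I, and it was 0.61 for the 4 brightest class II genes against 0.30 for the 9 brightest class I genes. These are descriptions of genes in 6 animals, and the difference in spread was not tested.

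The arrays at the ends of the class II range also stood apart in some lists of other cell types, but not in all. As a mean deviation from the control average, H2-Aa, H2-Ab1, H2-Eb1 and H2-DMb1 stood at -0.43, -0.22 and 0.65 in controls 1 to 3 and at 0.32, 0.13 and -0.75 in knockouts 1 to 3. The 5 general leukocyte genes, among them Ptprc (CD45), stood at -0.37, -0.02 and 0.39 and at 0.01, -0.05 and -0.83. Lists of single leukocyte types did not repeat that order. The 19 macrophage and dendritic cell genes stood at -0.07, -0.03 and 0.10 and at -0.07, -0.32 and -0.31. The 6 B cell genes stood at -0.05, 0.12 and -0.07 and at 0.00, -0.15 and 0.14, highest in knockout 3. The 9 T and natural killer cell genes stood at 0.17, -0.10 and -0.07 and at -0.16, -0.11 and -0.03. The 5 endothelial genes stood at -0.29, 0.02 and 0.28 and at 0.76, 0.43 and -0.89. The 7 thyroid follicular genes, Foxe1 among them, stood at 0.54, 0.42 and -0.96 and at 1.28, 0.80 and 0.97, lowest in control 3. Control 3 was highest and knockout 3 lowest for the bright class II and the leukocyte genes, while the endothelial genes were highest in knockout 1 and lowest in knockout 3. Knockout 3 was also lowest for 5 skeletal muscle genes (-0.93, against -0.28 and -0.33 in the other knockouts) and highest for 5 squamous epithelium genes (0.70, against 0.05 and 0.01). In bulk tissue, fewer cells of a type and less RNA per cell cannot be told apart, and the part of cell numbers or of the tissue taken with each lobe in the class II values was not tested. The class I H2- genes stayed closer together, with means over the 25 genes between -0.11 and 0.09 and, over the 9 brightest, between -0.22 in knockout 3 and 0.19 in control 3.

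**Figure D3:**
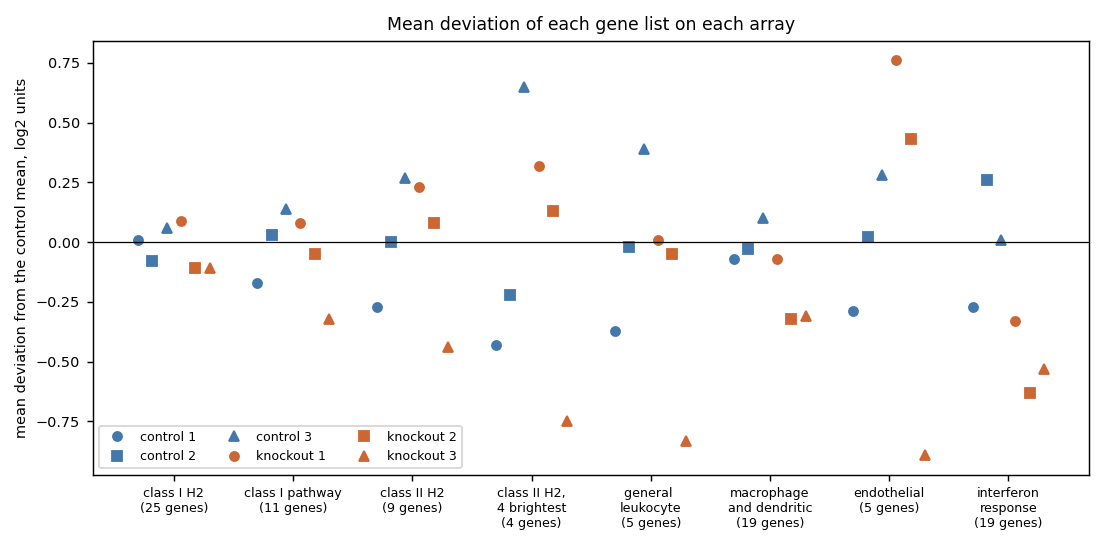
Mean deviation of each gene list from the control average on each of the 6 arrays (log2 units), for the MHC groups and for marker lists of leukocytes, macrophages and dendritic cells, endothelium and interferon response. Knockout 3 is at -0.75 for the 4 brightest class II genes, -0.83 for general leukocyte genes and -0.89 for endothelial genes, while class I stays within 0.11 of 0 on every array.

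Cells that normally carry class II could be traced only in part. Of 19 macrophage and dendritic cell markers, 6 had positive and 13 negative differences (median -0.26), with none past the threshold, and their mean level was 6.51 to 6.67 in controls and 6.25 to 6.50 in knockouts. Cd14 differed by -1.08, Itgam by -1.12 and Cx3cr1 by 0.45 (limma adjusted p of 0.148, 0.249 and 0.316). B cell markers read between 2.55 and 4.13, with 5 of 6 below the 25th percentile of probe sets, and averaged 3.06 to 3.25 in controls and 2.98 to 3.28 in knockouts. Their part in the class II values was not tested.

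Genes that make and load class I peptides showed no called change either. B2m, the shared light chain, read 17.15, 16.98 and 17.27 in controls and 17.13, 17.17 and 16.33 in knockouts, a difference of -0.26 (SE 0.25, 95% interval -0.84 to 0.32, limma adjusted p = 0.741). Knockout 3 alone was low, and without it the difference was 0.017. Tap1, a subunit of the peptide transporter, read 7.58, 8.02 and 8.58 in controls and 8.24, 7.73 and 7.81 in knockouts (difference -0.13, SE 0.28). Its partner Tap2 read 6.82, 6.74 and 6.76 against 6.77, 6.60 and 6.53 (difference -0.14, SE 0.17), and the chaperone tapasin, Tapbp, read 10.44, 11.09 and 10.70 against 11.12, 11.00 and 10.79 (difference 0.23, SE 0.22). Tapbpl, a peptide editor related to tapasin, and Erap1, which trims peptides, differed by 0.24 and 0.11.

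The interferon-inducible proteasome subunits had negative differences throughout, none of them called. Psmb8 read 6.64, 6.70 and 7.19 in controls and 6.91, 6.53 and 6.18 in knockouts, a difference of -0.30 (SE 0.25, 95% interval -0.87 to 0.26). Psmb9 read 4.86, 5.43 and 5.04 against 5.31, 4.98 and 4.06, a difference of -0.33 (SE 0.32), and Psmb10 read 7.03, 7.21 and 7.36 against 7.10, 7.13 and 6.88, a difference of -0.16 (SE 0.19). All 3 overlapped between groups, and Psmb9 was at 0.035 without knockout 3. Psme2, a subunit of the proteasome activator, had the smallest p of all members, with 10.17, 10.43 and 10.59 in controls and 10.21, 9.99 and 9.91 in knockouts (difference -0.36, SE 0.19, limma adjusted p = 0.49). Its partner Psme1 differed by 0.05. Over the 11 class I pathway genes the median difference was -0.14, with 4 positive and 7 negative, and it was 0.00 without knockout 3. The 16 measured subunits and helpers of the constitutive proteasome had a median of -0.04, with 7 positive, 9 negative and none called.

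The class I-like members present ligands other than peptides. Cd1d1, which shows lipids to natural killer T cells, read 6.61, 5.97 and 6.32 in controls and 6.40, 6.07 and 5.49 in knockouts (difference -0.31, SE 0.27). Mr1, which shows vitamin metabolites to mucosal T cells, read 9.10, 9.36 and 9.61 against 9.65, 9.51 and 8.86 (difference -0.02, SE 0.25, and 0.028 with each array centred on its median). Knockout 3 was the lowest array for both, and without it they stood at -0.065 and 0.22. Of 7 relatives outside the rule, 2 had positive and 5 negative differences, none called, and the neonatal Fc receptor gene Fcgrt differed by -0.87 (limma adjusted p = 0.359).

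Regulators of MHC transcription had differences in both directions, and none passed the threshold. Of 15 measured, 7 had positive and 8 negative differences (median -0.11), and 5 did not overlap between groups, 3 with the knockouts below and 2 above. That is 33.3%, against 18.1% of all probe sets and 24.5% of those over the median level, where 13 of the 15 lay. Whether the share differs was not tested. Irf1, a transcription factor that binds MHC class I promoters, read 8.90, 8.90 and 9.60 in controls and 8.38, 7.78 and 8.02 in knockouts (difference -1.07, SE 0.26, limma adjusted p = 0.136). The receptor chain Ifngr1 read 9.31, 9.58 and 9.73 against 8.73, 9.03 and 9.04 (difference -0.61, SE 0.20, adjusted p = 0.237), and neither gene overlapped between groups. Irf8, the third by p in this list, differed by -0.48 (adjusted p = 0.394). The kinase gene Jak1, named after its values were seen, had every knockout above every control, with 8.95, 8.91 and 8.73 in controls and 9.08, 9.29 and 9.37 in knockouts (difference 0.38, adjusted p = 0.424). The RFX subunits that bind the X box, Rfx5, Rfxank and Rfxap, differed by 0.36, 0.23 and -0.16 and are named for that role.

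A list of interferon-induced genes had mostly negative differences. Of its 19 measured members 15 had negative differences (median -0.47) and none was called, with list means of 6.00 to 6.53 in controls and 5.64 to 5.94 in knockouts. Oasl2, Cxcl9 and Usp18 differed by -1.85, -1.07 and -1.11 (limma adjusted p of 0.0729, 0.136 and 0.18), and each had all knockouts below all controls. Over the list 4 of 19 genes (21.1%) did not overlap between groups, 3 with the knockouts below and 1 above. The share over all probe sets was 18.1%. Airway markers, given above, read lower in the same arrays, and their part in this was not tested. Whether this list and the MHC genes differ in response was not tested. Among enzymes that supply class II peptides, Ifi30, a thiol reductase that opens disulphide bonds, read 9.25, 9.76 and 9.89 in controls and 10.12, 9.91 and 10.55 in knockouts (difference 0.56, SE 0.25, adjusted p = 0.393). Ctss, the protease of the invariant chain, was picked out after its values were seen. It differed by -0.24, and like H2-Aa it was highest in control 3 (9.30) and lowest in knockout 3 (7.69). Of the 5 measured genes of this list 2 had positive and 3 negative differences.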

How the data were processed

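Gene expression was measured in thyroid of 6 mice on 6 whole-transcript arrays. Each deposited value is a log2 signal of 1 probe set; the submitters' processing notes name RMA and Affymetrix Expression Console, without version, annotation or build in the sources used here. RMA equalises the arrays, and array signals that are faint or saturated are compressed. Probe sets were named through the platform annotation and RefSeq gene identifiers, with 19572 of 22206 carrying 1 symbol. All probe sets were tested with limma 3.58.1 in R 4.3.3 (lmFit, eBayes, two-sided, Benjamini-Hochberg over all 22206, threshold 0.05), with no filter and no count floor. Differences are knockout minus control. Classes and lists are described by counts and medians, with no test. The limma fit was also run on simulated arrays with known changes, whose levels and variances were taken from these data. Levels in the text are single probe sets and are not compared between genes. Values in every sample were given for a fixed list of members and for any member with non-overlapping groups, and were added for H2-T23, H2-Q10 and Psme2 after their values were seen. Members faint in all arrays were summarised, and of other lists up to 3 genes with the smallest p were named. The members and lists were chosen with earlier results of these data known. Alternatives changed the normalization, variance model, weights, filter, threshold, probe sets, covariates and arrays. Figures were drawn with matplotlib 3.10.9.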

Additional observations from a re-analysis of the deposited data

How the results depend on the processing

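No member passed the threshold under any of the alternatives run, an adjusted p of 0.1 included. Over all probe sets the limma count of 75 was 118 with a variance trend and robust fitting, 0 with an ordinary t statistic and 260 at an adjusted p of 0.1, and 2 to 43 with 1 array left out. No pairing of the animals by the replicate numbers of the labels was evident. The deviations of same-numbered arrays correlated at -0.01, 0.08 and 0.02, and 3 of 6 arrays correlated best with their own number. With 3 arrays per group such correlations cannot decide whether animals were paired. With the replicate block 63 probe sets and 0 members were called, and with the Y-linked level as a covariate 82 and 0. The median class I difference was -0.123 over the 14 genes above the 25th percentile, where the 11 faintest are left out by construction, and -0.10 to 0.007 with 1 array left out.

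Signs of single members were unstable. Array weights gave 0.06 for H2-Oa, 0.007 for H2-T-ps, 0.031 for H2-T23, -0.005 for Psme1 and 0.073 for Mr1. Centring each array on its median gave 0.012 for H2-T10, 0.035 for H2-T23 and 0.028 for Mr1, while the median of all probe sets moved from -0.02 to 0.02. Quantile normalization run again gave -0.012 for H2-K1. The cause of these reversals was not tested.

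With 1 array left out in turn, 29 of the 49 members changed sign at least once: 21 of the 37 above the 25th percentile, given next, and 8 of the 12 fainter ones. In class I, H2-K1 ran from -0.123 to 0.212, H2-D1 from -0.055 to 0.17, H2-Q2 from -0.018 to 0.052, H2-Q4 from -0.475 to 0.54, H2-Q5 from -0.36 to 0.005 and H2-T10 from -0.193 to 0.077. H2-T22 ran from -0.287 to 0.068, H2-T23 from -0.21 to 0.13, H2-T24 from -0.30 to 0.005 and H2-T-ps from -0.487 to 0.068. In class II, H2-Aa ran from -0.538 to 0.167, H2-Ab1 from -0.407 to 0.183, H2-Eb1 from -0.527 to 0.078, H2-DMb2 from -0.273 to 0.282, H2-Oa from -0.265 to 0.22 and Ciita from -0.212 to 0.003. Elsewhere B2m ran from -0.403 to 0.017, Tap1 from -0.373 to 0.127, Psmb9 from -0.59 to 0.035, Psme1 from -0.058 to 0.137 and Mr1 from -0.172 to 0.223. An unadjusted p under 0.05 was reached only by H2-Q10 without control 2 and by H2-DMb1 without control 3.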
